A study of Mus musculus with 6 samples.

Results

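The untreated TM3 cells of a study of 4-nitrophenol (PNP) are described here: 3 of its 6 samples, taken as those whose description gives a PNP dose of 0 µM at 24 h. TM3 is an immortal line from mouse testis that is commonly used as a model of Leydig cells, and the labels name it as a somatic cell line of the testis from a male. The other 3 samples received 10 µM PNP for 24 h and are not analysed here. The labels give no vehicle, passage or genetic change for the untreated cells, and they do not say whether the replicates came from separate cultures, so the spread between them may be technical. A single cultured line was used throughout, so the values describe that line and no testis tissue.

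Leydig cells lie between the seminiferous tubules and make testosterone. Luteinising hormone acts through its receptor and cyclic AMP, cholesterol is carried into mitochondria by StAR, and a chain of enzymes that begins with the side-chain cleavage enzyme CYP11A1 converts it to androgen. The factor SF-1, encoded by Nr5a1, drives many of these genes.

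Each sample was hybridised to its own Agilent array. The measure was the scaled log2 signal, which is the log2 of the processed signal minus the 75th percentile of the array's non-control probes, so that 0 is the signal at that percentile. The scanner software marks a spot as well above background, and a probe was called on an array when most of its kept spots carried that mark. Probes differ in how strongly they bind their target, so the position of one gene's signal against another's does not rank their RNA. The words bright, middle and dim give only the place of a gene's probe among all probes of the array. Spots well above background made up 62.1% ± 0.240 (SD, n = 3) of the non-control spots, and no spot was saturated. Of 308 negative control spots, between 3 and 7 were called per array. The lowest called signal lay between -5.12 and -5.03 on the scaled log2 scale.

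Of 23462 named genes, 21668 had a probe with a value on all 3 arrays. Among these, 13042 genes (60.2%) were called on all 3 arrays, 7699 (35.5%) were called on none, and 927 (4.28%) were called on some arrays or in part. A bright gene, with a probe above the 90th percentile of every array, was found in 2452 cases (11.3%). A dim gene was called but had its brightest probe below the 50th percentile of every array, which held for 1367 genes (6.31%). Protein-coding genes were called in 11945 of 18429 cases (64.8%) and long noncoding RNA genes in 946 of 2953 (32.0%).

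**Figure D1:**
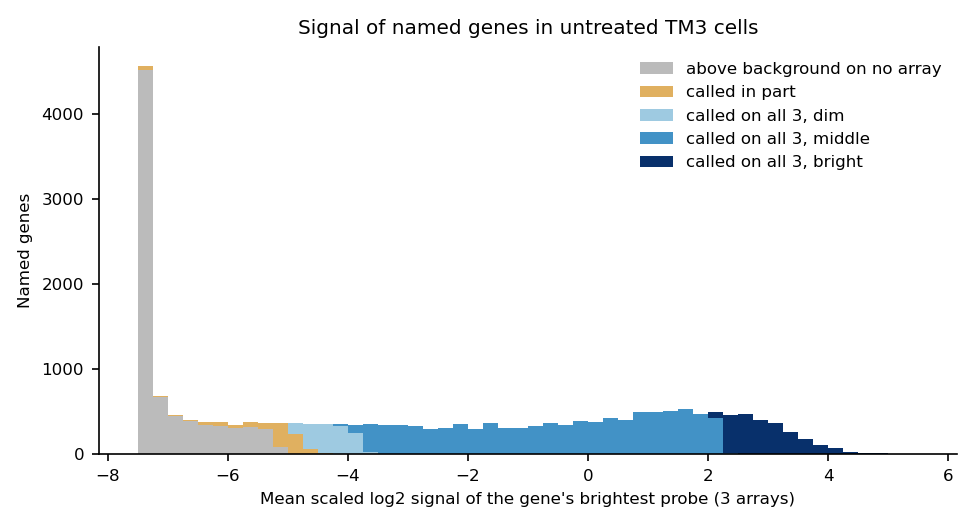
Mean scaled log2 signal of the brightest complete probe of each named gene (horizontal axis, 3 untreated arrays) against the number of genes in narrow bins, stacked by class. Genes called on no array pile up at the lowest signal, near -7.4, where the scanner software sets a surrogate value, and the 2452 bright genes lie above 2.16.

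A further 1794 named genes had no probe with a value on all 3 arrays, because the scanner software had marked a spot as an outlier. Such marks covered 6.53 to 9.07% of spots, and on each array 67.9 to 73.4% of the marked spots had a signal above the array's 75th percentile. With these spots kept, 538 of the 1794 genes (30.0%) were bright and 1224 were in the middle range. The outlier marks also removed a brighter probe of some genes that kept another probe: 165 genes of the middle or dim class were bright with all spots kept. Where a left-out probe was far brighter than the complete probe of a gene discussed below, its value is given.

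The 4 genes used to check the label were all called on all 3 arrays. Tspo, which encodes a cholesterol-binding protein of the outer mitochondrial membrane, had scaled log2 signals of 3.75, 3.63 and 3.66 and was bright. Fdx1, the ferredoxin that feeds electrons to mitochondrial P450 enzymes, had 2.43, 2.37 and 2.59 and was also bright. Tspo and Fdx1 are expressed in many cell types, so they do not by themselves mark a Leydig cell. Nr5a1, which is restricted to steroid-producing and related cells, had -1.59, -1.61 and -1.70, in the middle range. Star had -3.35, -3.37 and -3.30, with a mean of -3.34 ± 0.038 (SD, n = 3), well above the lowest called signal yet near the lower end of the middle range. Each of these genes agreed closely between the arrays, within a range of 0.22 log2 units.

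Other defining Leydig genes were not called. Cyp11a1, the first enzyme of steroid synthesis, had -7.25, -6.49 and -7.38 and lay below the lowest called signal on every array. Lhcgr, the receptor for luteinising hormone, had -7.22, -7.32 and -7.26, and Hsd17b3, the testis enzyme that makes testosterone from androstenedione, had -7.36, -7.37 and -7.43. Both stood close to the surrogate value of about -7.4, called the floor below, on all arrays. Hsd3b6 was called on no array, and Hsd3b1 on replicate 3 only, at -5.49, -5.33 and -4.80. Cyp17a1, which makes androgens from progestins, was called on all 3 arrays at -4.32, -4.37 and -4.60 and was dim. No named probe was found for Insl3. The defining Leydig markers thus met the label only in part: Nr5a1, Star and the dim Cyp17a1 were called, and Cyp11a1, Lhcgr and Hsd17b3 were not.

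Genes that supply cholesterol were called almost throughout. On the list of 17 cholesterol supply genes with complete values, 16 were called on all 3 arrays, beside 60.2% of all genes, and 5 were bright. Apart from Tspo, the bright members were Npc2, which moves cholesterol out of lysosomes, at 3.45, 3.23 and 3.40, the outer-membrane channels Vdac1 and Vdac2, and Atad3a, a protein of the inner membrane. Stard4, a soluble sterol carrier, lay just under the bright limit on 1 array, with 2.41, 2.07 and 2.40. Soat1, which esterifies cholesterol, and Npc1 were in the middle range.

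The outlier marks touched a gene of cholesterol uptake. Scarb1, the receptor for high-density lipoprotein, had -1.06, -1.56 and -1.26 by its complete probe. Its other probe, left out on replicate 1, had 2.49, 2.39 and 2.60 with all spots kept. The class of this gene therefore depends on the probe. Abca1, which exports cholesterol, was the member that differed most between arrays: it had -0.75, 0.44 and -0.97, with replicate 2 above the others.

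Every electron carrier with complete values was bright. These were Fdx1, Fdxr, Por and Cyb5r3, and the reductase gene Por, whose product serves the P450 enzymes of the endoplasmic reticulum, had 2.79, 2.93 and 2.65. Fdxr, the reductase that supplies ferredoxin, had 2.45, 2.40 and 2.52. Cyb5a and Cyb5b had incomplete values and were bright with all spots kept.

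Of 13 steroidogenic enzymes, 6 were called on all 3 arrays (46.2%), beside 60.2% of all genes, with 6 called on none and 1 in part. None was bright, where 11.3% of all genes were bright. The middle range held Srd5a1, a 5-alpha reductase, at -0.47, -0.88 and -0.32, and Akr1c14, a 3-alpha-hydroxysteroid dehydrogenase, at -2.03, -2.12 and -1.76. Besides Cyp17a1, the dim members were Hsd17b1, Hsd11b1, which activates glucocorticoids, and Sult1e1, which sulfates estrogens. Cyp19a1, the aromatase, Srd5a2 and Hsd11b2, which inactivates glucocorticoids, were called on no array.

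**Figure D2:**
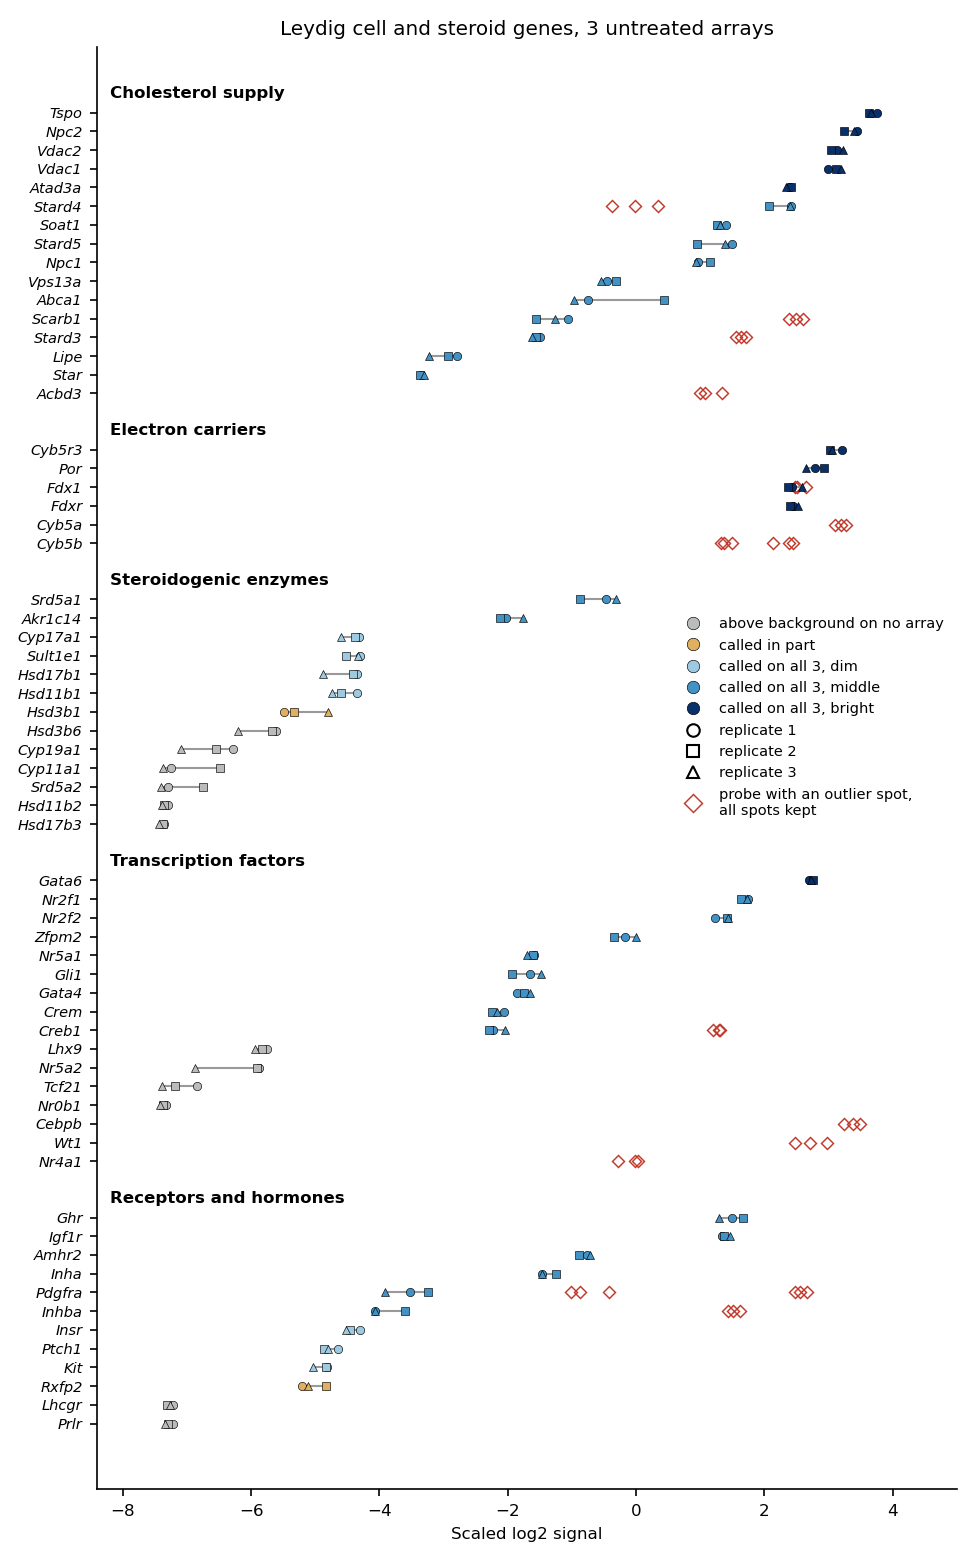
Scaled log2 signal (horizontal axis) of each gene on the 3 untreated arrays, by list, with filled symbols for the brightest complete probe coloured by class and open diamonds for probes that had an outlier spot, drawn with all spots kept. Tspo, Por, Fdx1 and Fdxr are bright, Star and Nr5a1 are in the middle range, and Cyp11a1, Hsd17b3 and Lhcgr lie at or near the lowest signal, while Scarb1 and Pdgfra have a brighter probe that was left out; positions of different genes do not rank their RNA.

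Leydig receptors and hormones were called in 9 of 12 cases (75%), beside 60.2% of all genes, and none was bright by a complete probe. Amhr2, the receptor for anti-Müllerian hormone that Leydig and Sertoli cells carry, had -0.77, -0.89 and -0.72. Ghr, the growth hormone receptor, had 1.50, 1.66 and 1.29, and all 3 of its probes were called. Igf1r and the inhibin subunit gene Inha were in the middle range as well. Dim members were Insr, the hedgehog receptor Ptch1 and Kit. Pdgfra, a receptor of stem and fetal Leydig cells, had -3.53, -3.24 and -3.91 by its complete probe but 2.47, 2.56 and 2.67 by a probe left out on replicates 1 and 2. Rxfp2, the receptor for insulin-like peptide 3, was called in part. Prlr, the prolactin receptor, was called on none of its 3 probes.

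Among 15 transcription factors of Leydig cells with complete values, 9 were called, a share close to the 60.2% of all genes, and 1 was bright. The bright member was Gata6, which acts with Gata4 on steroidogenic promoters, at 2.70, 2.76 and 2.73. Gata4 itself had -1.86, -1.74 and -1.65 and was called by both of its probes. Nr2f1 and Nr2f2, the COUP factors of mesenchymal and steroidogenic progenitors, were in the middle range at 1.74, 1.64 and 1.73 and at 1.23, 1.42 and 1.43. The middle range also held Zfpm2, a cofactor of the GATA proteins, Gli1, a target and effector of hedgehog signalling, and the cyclic AMP factors Creb1 and Crem. Creb1 had -2.23, -2.30 and -2.05 by its brightest complete probe and 1.31, 1.21 and 1.29 by a probe left out on replicate 1. Nr5a2, Nr0b1, Lhx9 and Tcf21 were among those called on no array, with Nr0b1, a repressor of SF-1, at the floor. Wt1 and Cebpb had incomplete values and were bright with all spots kept, Wt1 at 2.71, 2.48 and 2.98.

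Adrenal cortex genes, which share the SF-1 programme, were called in 4 of 7 cases (57.1%), near the 60.2% of all genes. Cyp21a1, the 21-hydroxylase, had -1.72, -2.13 and -1.87 by 1 probe. Its other probe was called on no array, at -5.96, -6.02 and -6.17. Cyp11b1, the 11-beta-hydroxylase of the adrenal cortex, had -0.37, 0.75 and -0.18, with replicate 2 above the others by more than the gap between them. Mc2r, the receptor for corticotropin, was in the middle range by 1 probe and not called by its other, at -6.87, -6.37 and -7.43. Akr1b7 was dim, and Mrap, the accessory protein of Mc2r, was not called.

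Nuclear receptors, the ligand-bound factors that include the steroid receptors, were called in 28 of 44 cases (63.6%), near the 60.2% of all genes. Rxrb and Nr2f6 were bright. Rxrb was called by all 3 of its probes, of which only 1 was bright. Nr3c1, the glucocorticoid receptor, had 2.03, 2.10 and 2.02. The progesterone receptor Pgr and the mineralocorticoid receptor Nr3c2 were called on no array. Esr1, the estrogen receptor alpha, had -0.66, -1.08 and -0.96 by its brightest complete probe, and 1.71, 1.74 and 1.84 by a probe left out on replicate 2. Esr2, the estrogen receptor beta, was bright by 1 probe, at 2.76, 2.71 and 2.94, while its other probe stood at the floor, at -7.34, -7.34 and -7.44. The lipid-sensing receptors Ppara, Ppard, Pparg, Nr1h2 and Nr1h3 and the retinoic acid receptors Rara and Rarb were in the middle range, and the liver receptors Hnf4a and Nr1i2 were not called.

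Markers of the other cell types that a testis line could hold or resemble were read from the same arrays. Peritubular myoid and smooth muscle genes were called in 10 of 12 cases (83.3%), beside 60.2% of all genes. Of them, 4 were bright (33.3%), beside 11.3% of all genes. Acta2, smooth muscle actin, had 3.88, 3.82 and 3.83, and all 3 of its probes were called, the dimmest at -1.46, -0.36 and -1.42. Tagln, Tpm2 and Cald1, which bind actin, were also bright, while Myocd, the coactivator of smooth muscle genes, and Lmod1 were at the floor. Myh11, the smooth muscle myosin, was dim. Actin and its partners are also made by fibroblasts in culture.

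Stem Leydig and mesenchymal surface genes were called in 11 of 13 cases (84.6%), beside 60.2% of all genes. Mcam, an adhesion molecule of pericytes, had 4.23, 4.17 and 4.19, and S100a4, a calcium-binding protein of fibroblasts, had 4.36, 4.00 and 4.23. Cd9 was bright, and Lifr, Cd34, Eng, Cd44 and Pdgfrb were in the middle range. Nes and Thy1 were dim, and Nt5e, an ectonucleotidase used as a marker of mesenchymal stromal cells, was at the floor. Vim, the intermediate filament of mesenchymal cells, had incomplete values and was bright with all spots kept, at 4.07, 4.01 and 4.06.

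Mesenchymal transcription factors were called in 11 of 13 cases (84.6%), beside 60.2% of all genes. Snai2, a repressor of epithelial genes, had 2.58, 2.57 and 2.82 and was bright. Zeb2, Twist2, Foxf1, Snai1, Zeb1, Prrx1, Prrx2, Osr1, Tbx3 and Sox4 were in the middle range, and Foxc2 and Meox1 were not called. Of the epithelial markers, 7 of 12 were called (58.3%), near the 60.2% of all genes, and none was bright. Cdh1, the epithelial cadherin, and Cldn3 were at the floor and Epcam was not called, while the keratin genes Krt14, Krt19 and Krt18 were in the middle range. Krt14 had 0.94, 0.06 and 0.83, so that replicate 2 lay below the others.

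Sertoli cell genes were called in 8 of 17 cases, beside 60.2% of all genes. Amh and Fshr, the hormone and the receptor that define these cells, were at the floor, and Dhh, Gata1 and Cldn11 were called on no array. Clu, a secreted chaperone, had 2.29, 2.15 and 2.01, and Trf, Kitl, Rhox5, Sox9 and Dmrt1 were in the middle range. Germ cell genes were called in 9 of 17 cases (52.9%), near the 60.2% of all genes, with none bright. Zbtb16, a factor of spermatogonia that other cells also express, had -0.47, -0.23 and -0.38, and Tnp2, a nuclear protein of spermatids, had -1.90, -2.15 and -2.31. Tex101 and Nanos3 were in the middle range, each called by both of its probes. Acrv1 and Dppa3 were at the floor, and Dazl, Prm1, Sycp1 and Stra8 were called on no array. Ddx4 and Sycp3 had incomplete values and were called with all spots kept, at 0.36, -0.33 and 0.54 and at 0.22, 0.10 and 0.70.

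Endothelial genes were called in 2 of 12 cases (16.7%), beside 60.2% of all genes. The called members were Egfl7, in the middle range, and Flt1, which was dim. Pecam1, Cdh5, Kdr, Tek, Tie1, Erg and Emcn were not called. Macrophage and leukocyte genes were called in 12 of 17 cases (70.6%), beside 60.2% of all genes. Ptprc, the antigen common to leukocytes, and Adgre1, Mrc1 and Cx3cr1, which mark macrophages, were called on no array. Csf1r, the receptor for macrophage colony-stimulating factor, had 1.76, 1.65 and 1.66 by 1 probe and -1.09, -1.58 and -1.16 by the other, both called. Cd14, a coreceptor for endotoxin, had 1.56, 1.60 and 1.63, its other probe was called too, and Cd68 was in the middle range. Itgam was bright by 1 probe at 3.68, 3.66 and 3.95 and not called by its other probe.

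Hepatocyte genes were called in 1 of 10 cases (10%), beside 60.2% of all genes. The called member was the dim Cyp2e1, and Alb and Ahsg were at the floor. Striated muscle genes were called in 3 of 9 cases (33.3%), beside 60.2% of all genes. Myod1, the master factor of skeletal muscle, had 2.40, 2.08 and 1.98, while Myh1 and Ttn were at the floor. Neural genes were called in 7 of 12 cases, beside 60.2% of all genes. Snap25 was bright by 1 of 2 probes, Mbp, a protein of myelin, had 1.66, 1.62 and 1.70, Syn1 and Map2 of neurons were in the middle range, and Gad1 and Slc17a7 were at the floor. Genes of fat, cartilage and bone were called in 7 of 10 cases (70%), beside 60.2% of all genes. Lpl, lipoprotein lipase, was bright at 3.55, 3.57 and 3.67, Alpl and Bglap of bone were in the middle range, and Acan of cartilage and Plin1 of fat droplets were not called. Pluripotency genes were called in 4 of 9 cases (44.4%), beside 60.2% of all genes. Pou5f1, which encodes OCT4, had -1.97, -2.10 and -2.08, Tdgf1 and Utf1 were in the middle range by 1 probe each, Nanog was bright by 1 of 2 probes, and Sox2 and Esrrb were at the floor.

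Matrix genes were called almost throughout and were often bright. Of 21 genes of the matrix and its enzymes, 19 were called and 11 were bright. Over all genes, 60.2% were called and 11.3% were bright. Col1a1 and Col1a2, the chains of type I collagen, had 4.03, 3.81 and 3.93 and 4.16, 3.89 and 3.99. Sparc, Fn1, Col3a1, Col6a1, the crosslinking enzyme Lox, the proteoglycan Dcn and the protease inhibitors Timp1, Timp2 and Timp3 were also bright. Lum and Postn were called on no array. Over the whole collagen family, 23 of 39 chains were called on all 3 arrays, 8 in part and 8 on none, close to the share of all genes. In the family 6 members were bright, among them Col8a1, at 3.10, 2.96 and 3.04. The family search for integrins also took in a few integrin-binding proteins. It gave 18 called of 30 (60%), near the 60.2% of all genes, with Itgb1, the shared beta chain, at 3.08, 2.98 and 2.97.

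The listed secreted growth factors and cytokines were called in 26 of 27 cases (96.3%), beside 60.2% of all genes, and Hgf was called in part. The list was chosen with earlier results of these data known, so its share does not describe all secreted factors. Bmp4 had 3.08, 2.94 and 3.06, and the chemokine gene Ccl2 had 2.75, 2.94 and 2.82. Pdgfa, Igf1 and Tgfb2 were bright too. Il6 and Tnf were dim, Il6 at -4.88, -3.88 and -4.26 with replicate 1 below the others. Receptor tyrosine kinases, which bind many such factors, were called in 22 of 37 cases (59.5%), near the 60.2% of all genes. Of them, 6 were bright (16.2%), beside 11.3% of all genes. Axl had 3.48, 3.46 and 3.47 by 1 probe and -1.93, -1.85 and -1.76 by the other. Met, the receptor for hepatocyte growth factor, had 3.09, 3.03 and 3.14 by 1 probe and 0.02, -0.16 and -0.15 by the other. Both probes of each gene were called, but only 1 was bright. Fgfr1, Egfr, Ryk and Ptk7 were bright as well. Erbb3, Erbb4, Ret, Flt3 and the endothelial receptors Kdr, Tek and Tie1 were called on no array.

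Genes of dividing cells were called in 10 of 11 cases (90.9%), beside 60.2% of all genes. Of them, 7 were bright (63.6%), beside 11.3% of all genes. Mki67, a marker of cycling cells, had 3.19, 2.97 and 3.14, and Cdk1, the kinase of mitotic entry, had 3.38, 3.18 and 3.31. Ccnd2, Ccnb1, Ccna2, Hmga1 and Hmga2 were bright, and Myc and Lin28b were in the middle range. Tert, the catalytic subunit of telomerase, was dim at -4.53, -4.47 and -4.74, and Terc, its RNA, was called on no array. Top2a, Ccnd1, Pcna and Mcm2 were among 5 members with incomplete values, of which 4 were bright with all spots kept.

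Brakes of the cell cycle were called in 9 of 12 cases (75%), beside 60.2% of all genes, and the missing ones were inhibitors of cyclin-dependent kinases. Cdkn2a, which encodes p16 and p19Arf and is often lost in immortal lines, was not called by either probe, at -7.29, -7.29 and -7.40 for the brighter one. Its neighbour Cdkn2b and the imprinted Cdkn1c were also called on no array. Trp53 was bright at 2.79, 2.67 and 2.65, with Mdm2, which degrades p53, at 2.42, 2.54 and 2.54. Cdkn1a, Cdkn2c, Cdkn2d and Rb1 were in the middle range. An array cannot tell a gene that is deleted from one that is silent.

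The HOX genes, whose clusters record position along the body axis, were called in 23 of 33 cases (69.7%), beside 60.2% of all genes. Hoxc9 had 3.19, 3.25 and 3.14, Hoxa9 had 2.35, 2.38 and 2.20, and Hoxd8 had 2.19, 2.25 and 2.19, and these 3 were the bright members. Among paralogue groups 1 to 10, 22 of 25 genes with complete values were called, and among groups 11 to 13, 1 of 8. The exceptions in the first set were Hoxa4, Hoxb1 and Hoxd1, and the called gene in the second set was Hoxc13. Hoxa10, Hoxa11, Hoxa5, Hoxa7, Hoxb2 and Hoxc8 had incomplete values, and all 6 were called with all spots kept, among them Hoxa11 at 1.40, 1.51 and 1.59. With that, 2 of 9 genes of the groups 11 to 13 were called.

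Imprinted genes, which are expressed from 1 parental allele, were called in 11 of 22 cases, beside 60.2% of all genes. Gnas and Sgce were bright, and Plagl1, Impact, Grb10, Igf2r, Igf2 and the noncoding H19 were in the middle range. Gnas, Plagl1 and Igf2 each also had a complete probe that was called on no array, for Igf2 at -7.34, -7.34 and -7.43. Dlk1, Meg3, Peg3, Peg10, Mest, Ndn, Nnat, Snrpn, Phlda2, Zim1 and Cdkn1c were called on no array. Meg3 was uncalled by all 4 of its probes, while Mirg and Rian of the same imprinted domain were in the middle range, Mirg at -0.21, -0.37 and -0.45. Over a short list of long noncoding RNAs, 9 of 11 were called, beside 32.0% of all long noncoding RNA genes. That list was chosen with earlier results of these data known, so its share does not describe the class. Snhg12, a host of small nucleolar RNAs, was bright at 2.34, 2.35 and 2.36. Airn and Kcnq1ot1, which silence neighbouring genes in imprinted domains, were in the middle range. For Kcnq1ot1, 2 left-out probes stood between 2.54 and 2.70 with all spots kept. A complete probe of Kcnq1ot1 was called on no array, at -7.31, -7.36 and -7.40.

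The sex of the line was checked against Y-linked genes and Xist, the RNA that silences an X chromosome in female cells. Kdm5d had -3.72, -3.50 and -3.71, Uty had -2.38, -1.44 and -2.60, Sry had -2.65, -3.01 and -2.76, and Eif2s3y was dim at -4.07, -4.17 and -4.12. Another complete probe of Kdm5d, at -6.19, -6.40 and -6.57, was called on no array. The same held for another probe of Eif2s3y, at -7.22, -7.28 and -7.30. Ddx3y had an outlier spot on each array and stood at 0.82, 1.23 and 1.04 with all spots kept, and a left-out probe of Kdm5d stood at 1.65, 1.68 and 1.60. Usp9y, Zfy1 and Zfy2 were not called, so that 4 of 7 Y-linked genes with complete values were called, beside 60.2% of all genes. Xist had -7.31, -7.37 and -7.41 and was at the floor.

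The families of general metabolism formed the other end of the range. All 31 Complex I subunits with complete values were bright, and so were 67 of 72 cytoplasmic ribosomal protein genes, 54 of 65 mitochondrial ribosomal protein genes, 26 of 33 proteasome subunits and 11 of 15 glycolytic enzymes. Over all genes, 11.3% were bright. Aldoa had 4.22, 4.00 and 4.05, Gapdh had 4.16, 4.02 and 4.06, and Rpl10a had 4.50, 4.32 and 4.32. The few uncalled members were forms known from particular tissues. Among the ribosomal proteins these were Rpl39l, a form of male germ cells, and Rpl3l, a form of striated muscle. Among the proteasome subunits they were Psma8, a form of testis, and Psmb11, a form of the thymus. All mitochondrial ribosomal protein genes with complete values were called. Together these 5 lists held 189 of the 2452 bright genes (7.71%).

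Families of tissues that a Leydig line does not resemble show how often the call is made without a known reason. Olfactory receptors were called on all 3 arrays in 119 of 1065 cases (11.2%), beside 60.2% of all genes. Vomeronasal receptors were called in 27 of 256 cases and taste receptors in 5 of 38. The called olfactory receptors comprised 55 dim, 63 middle and 1 bright, so that 46.2% of them were dim beside 10.5% of all called genes, and 52.9% were in the middle range beside 70.7%. A dim or middle call alone, such as that of Cyp17a1, Hsd17b1, Hsd11b1, Star or Nr5a1, therefore does not show that the transcript was present. Within 1 log2 unit of the lowest called signal lay 1021 called genes (7.83%). Keratin-associated proteins of hair were called more often than the chemoreceptors, in 24 of 52 cases (46.2%). Of the 52, 5 were bright (9.62%), beside 11.3% of all genes. A bright call alone therefore does not show that the transcript was present either. Defensins were called in 13 of 57 cases (22.8%) and major urinary proteins in 1 of 11 (9.09%), beside 60.2% of all genes.

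Of the enzymes that handle foreign compounds, cytochrome P450 genes were called in 28 of 89 cases (31.5%), beside 60.2% of all genes. Cyp39a1, an oxysterol hydroxylase, was alone bright among them at 2.54, 2.39 and 2.39. Sulfotransferases were called in 6 of 20 cases (30%) with none bright, and glucuronosyltransferases in 4 of 11 (36.4%), beside 60.2% of all genes. Ugt1a6b had 3.12, 3.15 and 3.16 by its brightest complete probe. The Ugt1a genes share their last exons, so a probe there cannot tell them apart. Crystallins were called in 11 of 19 cases (57.9%), near the 60.2% of all genes. Among them the small heat shock protein Cryab was bright at 3.05, 2.86 and 2.92. Glandular kallikreins were called in 7 of 27 cases (25.9%), beside 60.2% of all genes. The prolactin family was called in 8 of 21 cases (38.1%), beside 60.2% of all genes. Prl2c1 and Prl2c5 of the closely related Prl2c group were bright, the latter at 2.42, 2.25 and 2.56.

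**Figure D3:**
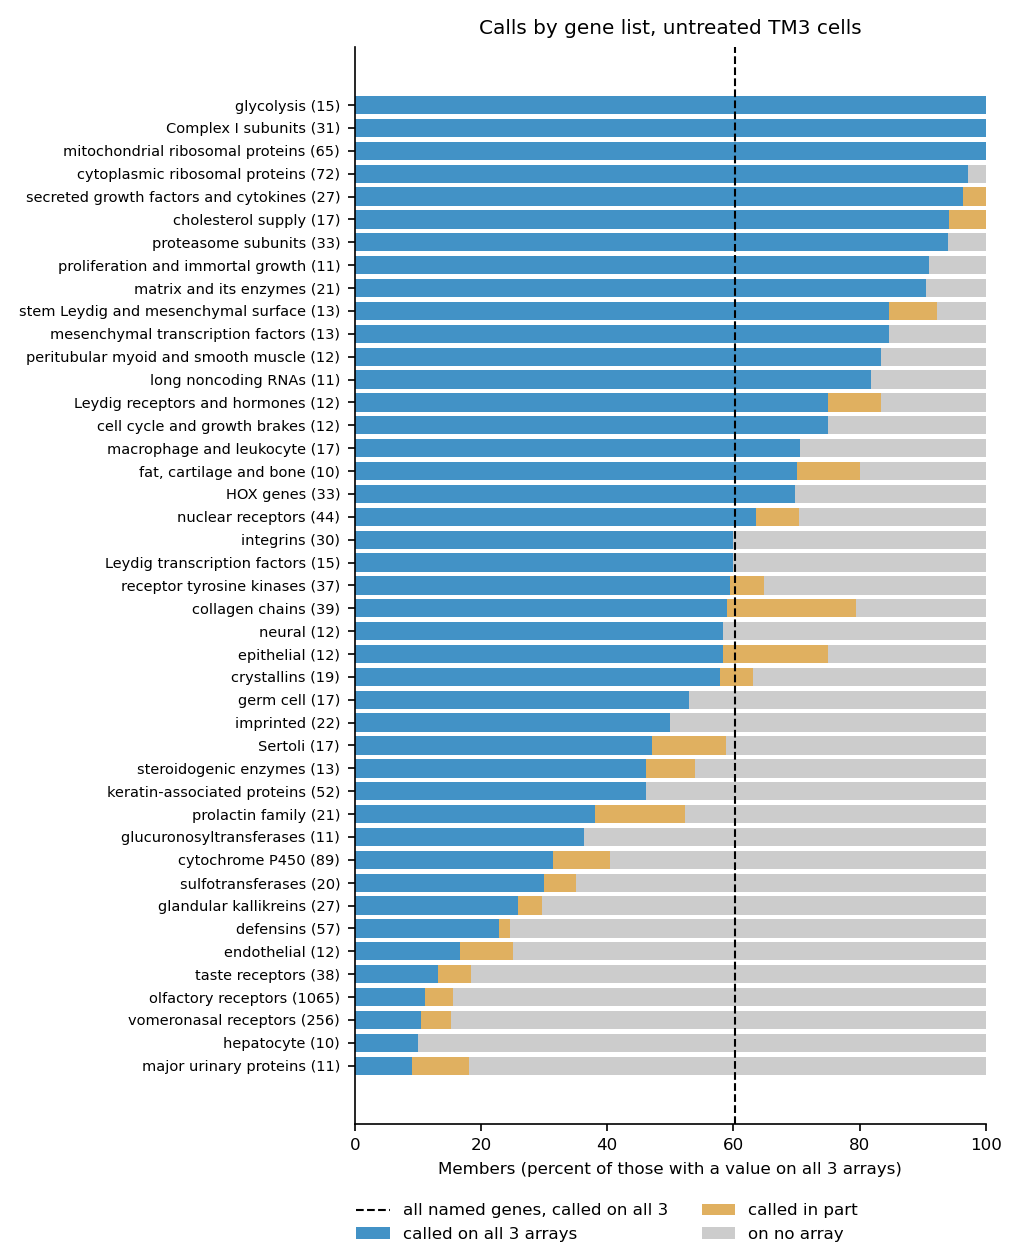
Share of each gene list (horizontal axis, percent of the members with a value on all 3 untreated arrays, their number in brackets) called on all 3 arrays, called in part, or on none, for lists of at least 10 such members. The dashed line is the 60.2% of all named genes: metabolic, cholesterol supply and matrix lists lie to its right, steroidogenic enzymes, endothelial and hepatocyte lists to its left, and the olfactory receptors stand at 11.2%.

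The 20 brightest named genes were not the metabolic families. They began with Pak4, a kinase of the actin cytoskeleton, at 5.70, 5.05 and 4.98, Zcchc9 at 5.83, 4.79 and 5.03 and Pdp2, a phosphatase of pyruvate dehydrogenase, at 5.59, 4.82 and 4.80. On each of these 3 genes replicate 1 was the highest. They went on with Eya1, Arl6ip6, Ephb3, Hemgn, Ldlrad3, Tmem239, Ung, Foxl2, Plekhg3, Nrp2, Mms22l, Synpo2l, Fkbp1a, Srek1, Timmdc1, Atxn7 and Slc3a2. Foxl2, a factor of ovarian granulosa cells, had 4.82, 4.68 and 4.78 by its only probe. Slc3a2, the heavy chain of amino acid transporters, had 3.37, 3.20 and 3.31 by its other probe. Srek1 had 2.40, 2.21 and 2.37 by its other probe. Fkbp1a, a peptidyl-prolyl isomerase, had -1.43, -1.60 and -1.54 by its other probe, so that its place among the brightest rests on 1 probe. The same held for several others, including Zcchc9 and Pdp2, whose other complete probes had means of 0.823 and 0.689. The means were -0.674 for Mms22l, -1.01 for Timmdc1, -1.67 for Plekhg3 and -2.85 for Nrp2. They were -4.73 for Ldlrad3 and -4.98 for Tmem239, and Hemgn and Synpo2l are taken up below.

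Probes of the same gene often disagreed. Among 6315 genes with several complete probes, all probes were called for 3306, none for 1390, and the probes differed for 1619 (25.6%). Of the 968 bright genes with several complete probes, 273 had every probe bright and 86 (8.88%) had another probe that was above background on no array. The remaining 1484 bright genes had 1 complete probe and no such check.

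Several genes that would be out of place in a testis line belonged to the split group. Nanog, a factor of pluripotent cells, was bright by 1 probe, at 4.53, 4.48 and 4.53, and uncalled by the other, at -7.29, -6.60 and -6.84. Trp63, a p53 relative of epithelial stem cells, had 4.07, 3.91 and 3.91 by 1 probe and -6.84, -6.15 and -5.74 by the other. Hemgn, of blood precursors, had 4.91, 4.78 and 4.83 against -7.32, -7.31 and -7.43. Snap25 of synapses, Itgam of macrophages, Synpo2l of striated muscle and Olfr1033, which is the bright olfactory receptor, had the same form. Esr2 had it too, but is not counted here as out of place. For these genes the level depends on the probe, and the files do not say which probe reads the transcript. Axl, Met, Csf1r and Acta2 were called by every complete probe, but these also lay far apart. All 3 complete probes of Col1a1 and all 4 of Gapdh were bright.

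The 3 arrays agreed closely. Across the 13042 called genes, which are not independent replicates, Pearson's r between arrays was 0.995 for replicates 1 and 2, 0.997 for 1 and 3 and 0.995 for 2 and 3. The median SD over the 3 arrays was 0.104 log2 units, a factor of 1.07. It was 0.0692 for bright, 0.110 for middle and 0.161 for dim genes, so the brighter signals were the more precise. In each array 300 probes were printed as repeated spots, and their median coefficient of variation was 4.79 to 7.37%.

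Only 146 called genes (1.12%) spanned more than 1 log2 unit over the arrays. Replicate 2 was the farthest from the middle value in 96 of them (65.8%), replicate 3 in 29 and replicate 1 in 21. The files give a single slide and scan for these arrays, and batches of culture, extraction or labelling are not given. The genes of widest range had different patterns. Arpp21 had -4.04, -2.51 and -4.58, with replicate 2 highest. Rpl37, a ribosomal protein, had -2.34, -3.50 and -1.64, and the histone gene H2ac4 had -1.32, -2.87 and -0.92, with replicate 2 lowest. Lpar5, Pou2af1 and Vaultrc5 were highest on replicate 3, and Ccne2, Catsperd and Tas2r124 on replicate 1. None of the 4 genes used to check the label and no member of the steroidogenic enzyme list was among them.

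**Figure D4:**
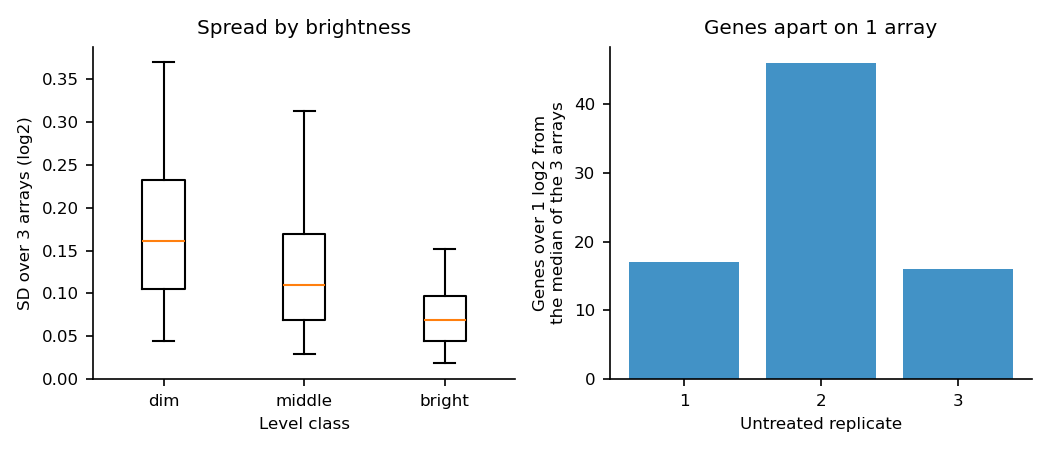
Left, SD over the 3 untreated arrays (vertical axis, log2 units) of called genes by level class, with boxes for the quartiles and whiskers for the 5th and 95th percentiles; the medians are 0.161 for dim, 0.110 for middle and 0.0692 for bright genes. Right, number of called genes whose signal on 1 array lay more than 1 log2 unit from the median of the 3, which was 17 for replicate 1, 46 for replicate 2 and 16 for replicate 3.

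The promoters of the called genes were compared as sequence, using windows of 300 bases that run from 250 before to 50 after the first listed transcription start (RefSeq, GRCm38.p6). These were found for 14757 of 18429 protein-coding genes with complete values (80.1%). In vertebrates, promoters of widely expressed genes tend to lie in CpG islands, where the dinucleotide CG escapes the loss that methylation brings elsewhere. The ratio of observed to expected CpG had a median of 0.786 for bright, 0.729 for middle and 0.333 for dim genes, and 0.246 for genes called on no array. Without olfactory and vomeronasal receptors the last value was 0.314. Of 7271 genes with a ratio above 0.6, 84.7% were called, and of the other 7486, 45.7%.

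**Figure D5:**
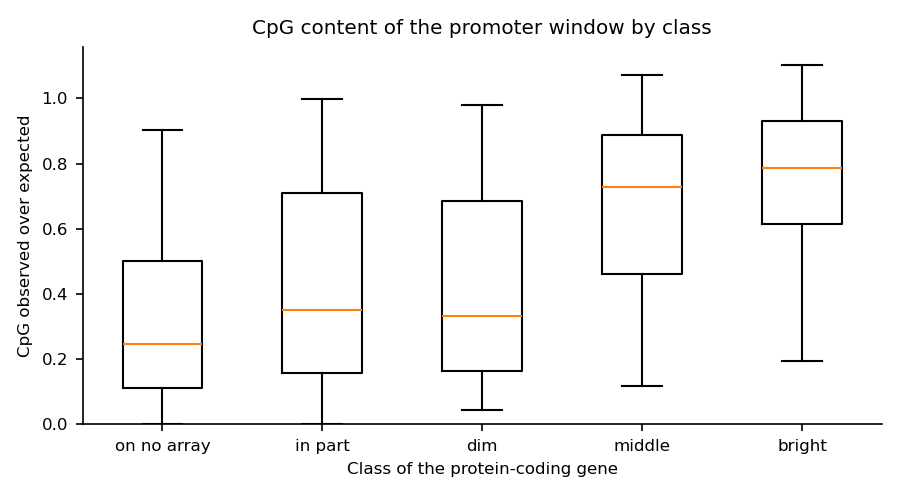
Ratio of observed to expected CpG in the 300-base promoter window (vertical axis) of protein-coding genes by class, with boxes for the quartiles and whiskers for the 5th and 95th percentiles. The median rises from 0.246 for genes called on no array to 0.786 for bright genes, and the classes overlap widely.

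The promoters of 5 genes of the steroid pathway or its signals are printed because they span the classes. Each stretch is the 120 bases before the start, read 5′ to 3′ on the strand of the gene, with every CpG in capitals. Fdx1 lies at chr9:51963603-51963722 on the minus strand and Por at chr5:135689025-135689144 on the plus strand. Hsd17b3 lies at chr13:64089202-64089321, Hsd3b6 at chr3:98814444-98814563 and Ptch1 at chr13:63565736-63565855, all on the minus strand.
Fdx1: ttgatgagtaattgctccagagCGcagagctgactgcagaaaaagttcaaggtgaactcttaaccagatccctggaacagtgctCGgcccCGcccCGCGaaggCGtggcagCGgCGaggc
Por: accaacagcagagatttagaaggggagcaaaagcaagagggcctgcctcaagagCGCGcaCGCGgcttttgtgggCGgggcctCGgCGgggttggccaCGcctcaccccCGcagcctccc
Hsd17b3: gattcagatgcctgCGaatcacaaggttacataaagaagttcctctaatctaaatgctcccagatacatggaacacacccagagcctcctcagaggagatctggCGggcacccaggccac
Hsd3b6: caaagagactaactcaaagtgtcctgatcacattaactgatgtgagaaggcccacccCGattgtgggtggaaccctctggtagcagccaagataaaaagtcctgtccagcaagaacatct
Ptch1: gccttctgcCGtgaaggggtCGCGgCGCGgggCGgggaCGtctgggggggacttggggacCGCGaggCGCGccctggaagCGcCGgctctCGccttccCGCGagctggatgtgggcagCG

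The bright genes Fdx1 and Por held 8 and 9 CpG in these stretches, and the uncalled Hsd17b3 and Hsd3b6 held 2 and 1. Ptch1 ran the other way: it held 17 CpG and had a ratio of 1.09 over its whole window, yet was dim, at -4.65, -4.86 and -4.80. A promoter rich in CpG was thus also found in front of a dim gene.

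Short motifs were searched in the same windows on both strands, CCAAT and GGGCGG in the 250 bases before the start and CCGGAAG and TCAAGGTCA in all 300. The TATA box was searched only on the strand of the gene, from 50 to 11 bases before the start. The TATA box TATAAA was found in 1.84% of bright genes and 5.63% of uncalled ones, beside 3.40% of all 14757. CCGGAAG, the core bound by ETS factors, was found in 22.7% of bright and 3.24% of uncalled genes, beside 11.9% of all. GGGCGG, the core bound by SP factors, was in 59.4% of bright and 23.9% of uncalled genes, beside 44.2% of all. CCAAT was in 38.1% of bright and 34.3% of uncalled genes, beside 35.8% of all. Both CCGGAAG and GGGCGG contain a CpG, and how far their shares follow CpG content was not tested. The SF-1 site TCAAGGTCA was in 0.358% of bright and 0.285% of uncalled genes, beside 0.305% of all. A match is a description of letters and not a site of binding.

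By chromosome, 57.6% to 72.6% of the protein-coding genes of each autosome were called. The X chromosome stood below that range, with 372 of 737 genes called (50.5%), and the Y chromosome gave 10 of 18. The lowest autosome was chromosome 6, and the highest was chromosome 15.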

How the data were processed

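Total RNA of 3 untreated TM3 samples was amplified, labelled and hybridised to 1-channel Agilent mouse arrays, per the labels' protocols. The labels name Cy3, while the scanner files hold red-channel columns, and which dye these stand for is not settled here. The deposited intensity values come from Agilent Feature Extraction, version 11.5.1.1 per the file headers and 10.7 per the submitters' processing notes, with background subtracted and low values replaced by a surrogate. A normalized table deposited by the authors is in log2 units, by comparison with the scanner values (median 8.27 in each column, direction and lack of centring as in the scanner signal); how it was normalized is not stated in these sources, and it served as an alternative only.

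Outlier spots (non-uniform, or far from the population of repeats) were dropped, and the remaining spots of a probe were averaged. Percentiles were taken over all non-control probes of an array. Accessions without their versions were matched to RefSeq genes of GRCm38.p6, which gave symbols to 33767 of 56605 probes. A gene was read from its brightest probe with a value on all 3 arrays. With 1 group there was no contrast and no test, and 3 arrays limit the precision. Calculations used Python 3.11.15, pandas 2.3.3 and, for 1 alternative, limma 3.58.1. The classing code was run on simulated data with well separated levels, calls set by the level and slightly different limits. That run cannot show how well genes near a limit or near the floor are classed.

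The members and the 49 gene lists were chosen with earlier results of these data known. Genes named are all members of the Leydig, steroid and sex-linked lists, up to 4 members of highest and 2 of lowest mean signal in every other list, the 20 brightest genes and the 10 of widest range, without clone names and predicted genes. Other list members are named by class, after their values were seen. A few genes that these rules would name are not reported here.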

Additional observations from a re-analysis of the deposited data

Results flagged for a closer look

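Probes without a gene name also gave signal, and no gene above was read from them. They did enter the percentiles that set the scale and the bright and dim limits, and the shares of spots. Of 20824 such probes with a value on all 3 arrays, 9540 (45.8%) were well above background on all 3, where 0.974 to 2.27% of the negative control spots were called per array. The share was 47.7% for probes to Ensembl transcripts, 53.0% for probes to genome intervals, 35.6% for RefSeq accessions outside the gene list and 41.7% for other identifiers, beside 58.9% of named probes. Bright signals were found for 4.02% of the unnamed probes and 9.49% of the named ones. What these probes measure was not tested.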

How the results depend on the processing

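No paired analysis was possible because 1 group was described and no groups were compared. Leaving out 1 replicate at a time gave 13384 to 13564 called genes, 7846 to 7893 called on no array, 2564 to 2737 bright and 1491 to 1577 dim genes, and a median SD of 0.0762 to 0.0964; fewer arrays make each criterion easier to meet. Counts followed the definitions: with the positive-and-significant mark in place of the well-above-background mark, genes called on no array fell to 4348 and called genes came to 15951, and 11 of 49 list counts moved by over 1.5 times. Bright genes numbered 1086 above the 95th percentile. Dim genes numbered 1 below the 40th percentile, which lies close to the lowest called signal, and 3194 below the 60th. With outlier spots kept, 14972 genes were called and 3174 were bright. Alternatives chosen after seeing the data required every probe to be bright, which left 1757 genes, or set aside genes with a probe above background on no array, which left 2366. Normexp background correction gave 2509 bright and 1323 dim genes, and the deposited table gave 2452 and 1367. The signals printed for single genes did move: by more than their SD in 170 of 343 cases with normexp, by -0.13 to 2.98 log2 units and most at dim probes, and in 103 of 343 with the deposited table, by -0.012 to 0.147. Scaling by the median, by quantiles or not at all gave a median SD of 0.0986 to 0.109. Calls near the lowest called signal are limited by signal over background.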
